A study of Arabidopsis thaliana with 8 samples.

Results

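The aluminium response of cml24-2 roots was taken from 4 of the 8 libraries of the series: 2 from cml24-2 roots given 10 µM AlCl3 for 6 h and 2 from cml24-2 roots given 0 µM. The cml24-2 line is a mutant of CML24 (AT5G37770), a gene for a calmodulin-like calcium sensor, whose allele type is not stated in the labels, and no second mutant line is listed. Its reference genotype was the wild type Col (WT), also with 2 libraries with Al and 2 without. Every group consisted of seedlings that were 6 d old, had been grown in nutrient solution at pH 5.0, and were handled in lots of about 500 per treatment, so a library is a pool of many roots. Total RNA of whole roots was sequenced on the BGISEQ-500 platform. Members were chosen by label alone and all 20262 genes with enough counts were tested, with p-values adjusted over all of them. Nothing in the labels tells if libraries of 1 group were grown apart, and p-values therefore measure only the spread between these samples, which may be technical.

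Aluminium becomes soluble in acid soil and stops root growth within hours, chiefly by binding to the walls, membranes and nuclei of cells near the root tip. Arabidopsis keeps the ion out with organic acids: the zinc finger factor STOP1 switches on ALMT1, a channel that releases malate, and a citrate carrier of the multidrug and toxic compound extrusion (MATE) family, and transporters of the ATP-binding cassette type, such as ALS1, move aluminium away from sensitive sites. Calcium rises in root cells soon after exposure, and calmodulin-like proteins bind that calcium and change the activity of partner proteins.

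The cml24-2 libraries held 11909601 and 11941229 expected counts with Al and 12079024 and 12107656 without Al, where an expected count is a number of reads assigned to a gene, fractions included. Levels are given as FPKM, reads per kilobase of gene, scaled to the assigned reads of the library, and changes as edgeR log2 fold changes with standard errors (SE). Each edgeR SE was derived from the test, as the absolute log2 fold change divided by the square root of the F statistic. In a principal component analysis of all 8 libraries the first component (66.3% of the variance) separated Al from no Al and the second (19.6%) separated the genotypes. Root hair, endodermis, root cap, meristem, xylem and phloem markers, summed by tissue, were detected in all 4 cml24-2 libraries. The endodermis marker CASP4 was at 0 in Al library 2, and none of these markers was at 0 in all 4 libraries. Of the 8 marker genes of shoot photosynthesis, which belong to another organ, none was at 0 either: they summed to 69.4 and 78.9 FPKM with Al and to 116 and 159 FPKM without Al, and 4 of the 8 were called lower. Their part in the results was not tested. CML24 had 146 and 106 FPKM with Al, against 207 and 129 FPKM without Al in cml24-2 roots (log2 fold change -0.44, SE 0.35, edgeR adjusted p = 0.34). Its groups overlapped. In WT it had 48.5 and 43.0 FPKM with Al, against 49.5 and 114 FPKM without Al, so that its transcript was not lower in the mutant, and without the kind of allele this level does not check the label. The submitters' notes do not state strand, and reads of overlapping genes cannot then be told apart: CML24 overlaps AT5G37760 over 723 bases. Of the genes named below, ESB1 overlaps a gene on the opposite strand over 1772 bases, GSTF2 over 1442, PGIP1 over 1238, ACA10 over 1006 and AUR2 over 877. CML12 does so over 827 bases, PYL7 over 571, CESA8 over 481, KNOLLE over 464 and STOP1 over 417.

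With Al, 4313 genes were called higher (21.3% of those tested) and 4717 lower (23.3%) at an adjusted p under 0.05, and 1233 (6.09%) and 1823 (9.00%) of them differed by at least 2-fold. In RNA of whole roots, fewer cells of a type and less RNA per cell cannot be told apart. In what follows a gene rose, fell or changed when it passed the edgeR test at that threshold, and a bare number in brackets after its levels is its log2 fold change. Where libraries are said not to overlap between the groups, this describes the levels of the genes named. With 2 libraries a group it adds no support to the test, and its share over all genes is not given. The 2-fold counts of a list stand beside 6.09% higher and 9.00% lower, and its median log2 fold change beside -0.005 over all genes tested. Of 1363 distinct list genes tested, 476 changed by at least 2-fold, against 3056 of all 20262 genes (15.1%). The lists were chosen with earlier results of these data known, so this contrast is no independent result. The share of changed genes differed widely between lists, as the plot of all 59 lists shows.

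**Figure D1:**
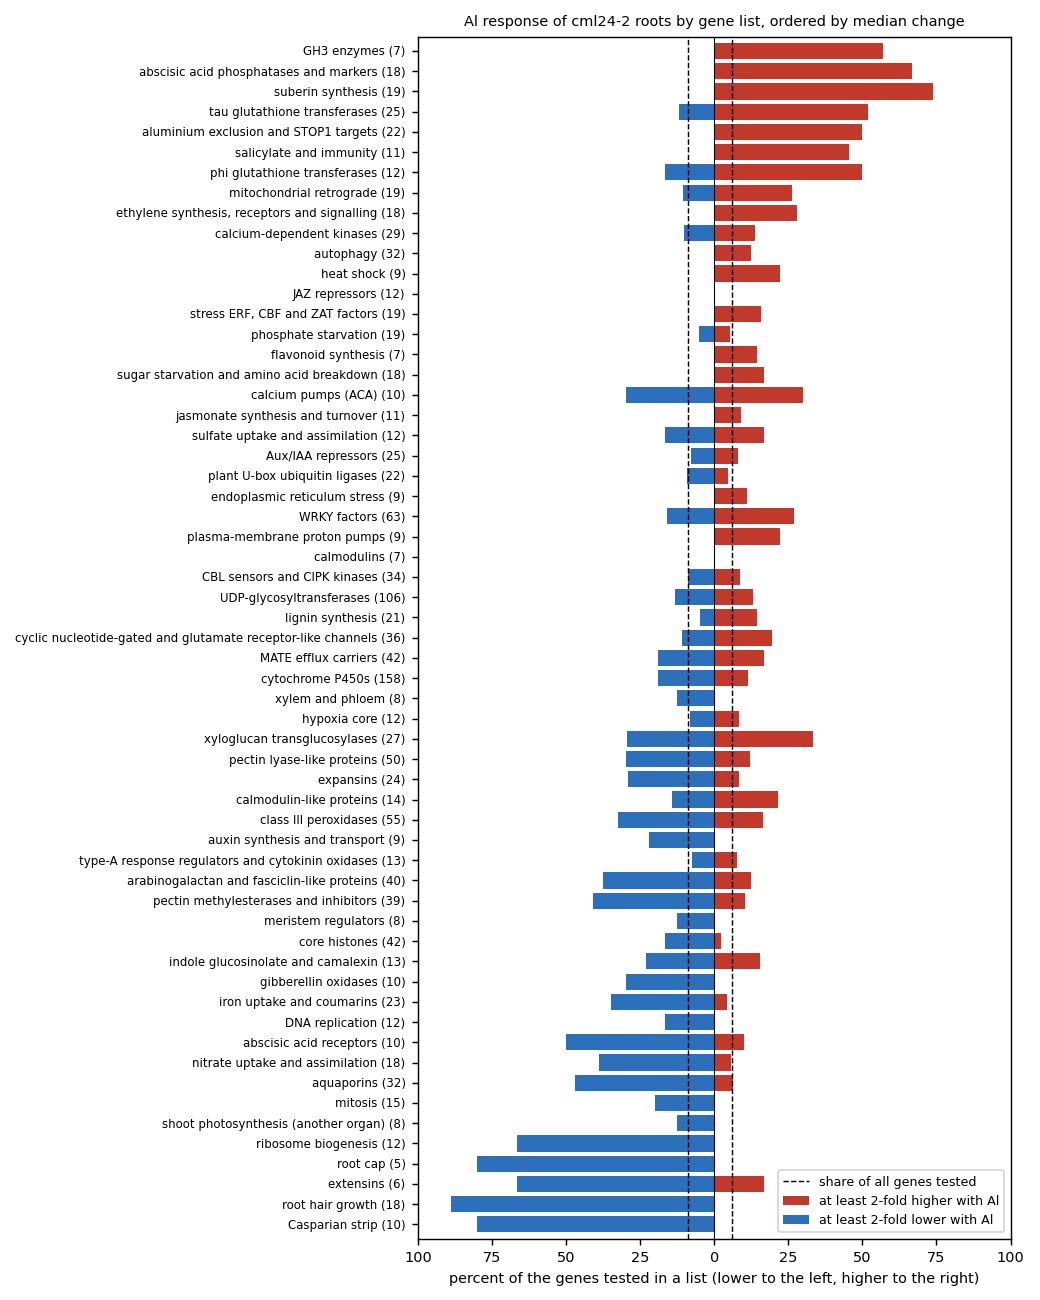
Percent of the tested genes of each of 59 lists that were at least 2-fold higher with Al (red, to the right) or at least 2-fold lower with Al (blue, to the left) in cml24-2 roots, n = 2 libraries a group, with the number of genes tested in brackets. Dashed lines mark 6.09% higher and 9.00% lower, the shares of all genes tested. Suberin synthesis had 73.7% higher and 0.0% lower, and root hair growth had 88.9% lower and 0.0% higher.

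Most genes of aluminium exclusion rose. Of 22 tested, 15 rose, 11 of them by at least 2-fold (50.0%), and 1 fell, with a median of 0.96 on the log2 scale. ALMT1, the malate channel, had 27.5 and 24.6 FPKM with Al, against 2.93 and 1.60 FPKM without Al (log2 fold change 3.5, SE 0.22, edgeR adjusted p = 5.5e-06). AT1G51340, a MATE family gene, had 13.5 and 13.8 FPKM with Al, against 4.49 and 3.59 FPKM without Al (log2 fold change 1.90). STOP1 had 172 and 188 FPKM with Al, against 112 and 120.0 FPKM without Al (0.61). In each of these the lowest library with Al lay above the highest library without it, and STOP1 was the most abundant of them and changed least. PGIP1, which encodes an inhibitor of fungal pectin-degrading enzymes and is a known STOP1 target, had 416 and 515 FPKM with Al, against 89.9 and 91.9 FPKM without Al (log2 fold change 2.33). AT5G01720, annotated as a leucine-rich repeat (RNI-like) protein, had 81.6 and 90.7 FPKM with Al, against 16.3 and 13.3 FPKM without Al (2.52).

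Enzymes that use organic acids and amino acids were among the most abundant members. NADP-ME2, which decarboxylates malate, had 546 and 614 FPKM with Al, against 327 and 312 FPKM without Al (log2 fold change 0.84). GDH1 and GDH2, the subunits of glutamate dehydrogenase, changed by 1.82 and 1.09, and GABA-T, which breaks down the amino acid GABA, by 1.24. Their libraries did not overlap between the groups. CAMTA2, a calmodulin-binding factor known to act on ALMT1, had 54.6 and 54.1 FPKM with Al, against 20.6 and 20.9 FPKM without Al (log2 fold change 1.36, SE 0.09, edgeR adjusted p = 8e-06). The vacuolar aluminium transporter ALS1 had 23.8 and 24.7 FPKM with Al, against 14.4 and 13.2 FPKM without Al (0.79). NIP1;2, an aquaporin-like channel that carries aluminium malate, had 12.9 and 11.4 FPKM with Al, against 10.01 and 10.9 FPKM without Al. STOP2 had 30.8 and 37.0 FPKM with Al, against 26.1 and 30.8 FPKM without Al, and neither NIP1;2 nor STOP2 passed the test. The 1 member that fell was STAR1, an ATP-binding transporter subunit of aluminium tolerance, with 10.4 and 9.75 FPKM with Al, against 12.02 and 14.3 FPKM without Al (log2 fold change -0.41, SE 0.15, edgeR adjusted p = 0.048). That call ended without WT control library 1 (edgeR adjusted p = 0.055), either WT Al library (0.058 each), cml24-2 control library 2 (0.25) or cml24-2 Al library 1 (0.11) or 2 (0.18). Counts of GDH1, GDH2, NADP-ME2 and NIP1;2 include reads shared with other genes.

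**Figure D2:**
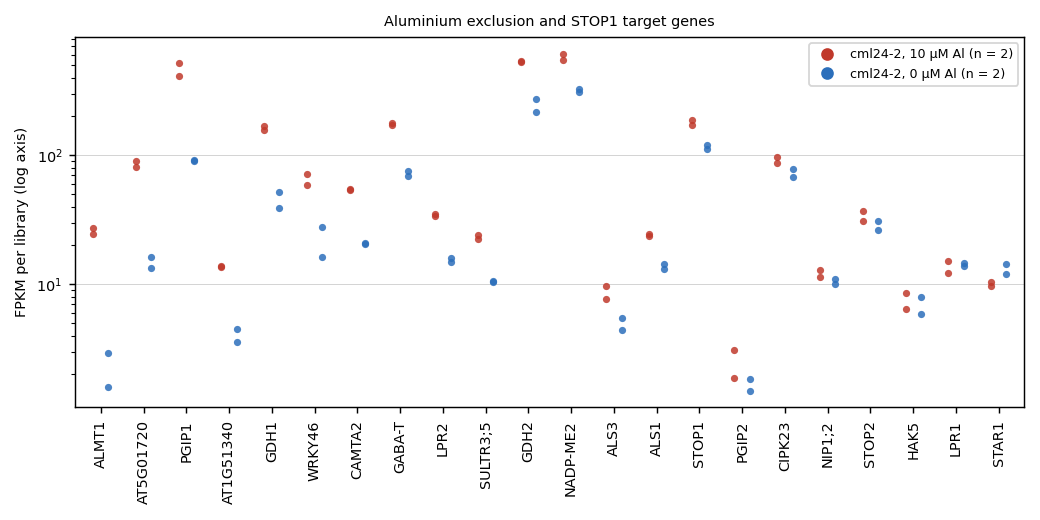
FPKM (log axis) of the 22 aluminium exclusion and STOP1 target genes in each cml24-2 library, with Al (red, n = 2) and without Al (blue, n = 2), ordered by log2 fold change. ALMT1 at the left had 27.5 and 24.6 FPKM with Al, against 2.93 and 1.60 FPKM without Al. STAR1 at the right had 10.4 and 9.75 FPKM with Al, against 12.02 and 14.3 FPKM without Al.

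The promoters of these genes were searched for the letters ACGCGT, the CGCG box that CAMTA factors bind, on both strands of the 250 bases before the annotated start. This motif reads alike on both strands. It stood before 3 of the 22 genes and before 368 of 20186 tested genes with a window (1.82%). The 3 stretches are shown because they carry the box in the list that holds CAMTA2 itself, in RefSeq TAIR10.1 sequence, 5′ to 3′ on the strand of the gene, with the box in capitals.
ALMT1, chr1:2658459-2658514, strand plus: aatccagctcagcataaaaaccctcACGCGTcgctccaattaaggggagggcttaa
PGIP1, chr5:2132161-2132216, strand plus: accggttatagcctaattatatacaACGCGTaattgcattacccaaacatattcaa
HAK5, chr4:7802347-7802402, strand minus: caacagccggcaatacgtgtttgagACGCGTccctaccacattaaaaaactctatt
ALMT1 and PGIP1 were among the members with the largest rises, whereas HAK5, a potassium transporter, had 8.57 and 6.49 FPKM with Al, against 5.92 and 8.01 FPKM without Al and did not pass (log2 fold change 0.09, SE 0.34, edgeR adjusted p = 0.85). Among all genes, the box stood before 45 of 1232 that were at least 2-fold higher (3.65%) and before 13 of 1823 that were at least 2-fold lower (0.713%). A second search for CGCGTT, which overlaps the first wherever ACGCGTT occurs, gave 4.95% of the higher genes, 1.59% of the lower genes and 2.80% of all tested.

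Genes of calcium transport and sensing changed in both directions. ACA13, a calcium pump of the plasma membrane type, had 91.0 and 69.7 FPKM with Al, against 2.55 and 1.87 FPKM without Al (log2 fold change 5.16, SE 0.21, edgeR adjusted p = 7.4e-07). ACA10 and ACA12 rose by 1.21 and 1.22 on the log2 scale. AT2G41560 (ACA4), a vacuolar pump, had 8.63 and 9.95 FPKM with Al, against 26.7 and 25.2 FPKM without Al (-1.51). ACA9, known from pollen, had 0.91 and 0.60 FPKM with Al, against 1.90 and 2.13 FPKM without Al (-1.43). Of 10 pumps tested, 3 rose and 3 fell by at least 2-fold (30.0% each), so that pumps of the same family went both ways. AT2G41560 shares reads with another gene.

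Among the 14 calmodulin-like genes in the list used here, 3 rose and 2 fell by at least 2-fold, and the median was -0.27. CML12 (also TCH3), a close relative of CML24 that responds to touch, had 874 and 930.4 FPKM with Al, against 129 and 88.6 FPKM without Al (log2 fold change 3.03, SE 0.22, edgeR adjusted p = 1.3e-05). CML41, known from callose deposition at plasmodesmata, had 39.0 and 33.2 FPKM with Al, against 3.63 and 3.18 FPKM without Al (3.38). CML11 had 100.8 and 102 FPKM with Al, against 27.4 and 26.7 FPKM without Al (1.86). The nearest relative of CML24, CML23, had 12.6 and 7.60 FPKM with Al, against 18.6 and 7.92 FPKM without Al and did not pass. AT3G47480, annotated as an EF-hand calcium-binding protein, is not counted among those 14. It had 104 and 86.2 FPKM with Al, against 1.62 and 1.78 FPKM without Al (log2 fold change 5.77, SE 0.18, edgeR adjusted p = 3.5e-07). Of the 7 calmodulins, 3 rose in the edgeR test, each by less than 2-fold, and 0 fell. CML11 and CML12 hold reads shared with other genes. Without cml24-2 control library 1 or Al library 1, or either WT library with Al, the calmodulin-like genes at least 2-fold lower numbered 1.

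Single genes among the calcium channels and calcium-dependent kinases also went in both directions. Of these kinases 13.8% rose and 10.3% fell by at least 2-fold, beside 6.09% and 9.00% of all genes tested. These 2-fold kinase counts are small, and the share lower is near that of all genes. At any fold 14 of the 29 kinases rose and 5 fell, with a median of 0.56, beside 21.3% and 23.3% of all genes tested. Of 36 cyclic nucleotide-gated and glutamate receptor-like channels, 7 rose and 4 fell by at least 2-fold. CNGC19, a channel of wound-induced calcium signals, had 34.7 and 29.1 FPKM with Al, against 3.03 and 2.85 FPKM without Al (3.39). CNGC13 had 14.6 and 16.01 FPKM with Al, against 1.48 and 2.14 FPKM without Al (3.05). GLR1.2 had 6.35 and 6.65 FPKM with Al, against 0.60 and 0.78 FPKM without Al (3.19). All 3 channels had little RNA without Al, and no library pair overlapped between the groups. CNGC14, the channel behind auxin-induced calcium entry in root hairs and gravity responses, had 6.38 and 6.36 FPKM with Al, against 16.9 and 15.1 FPKM without Al (-1.36). Of 29 calcium-dependent kinases, 4 rose and 3 fell by at least 2-fold, and without Al library 1 the count higher was 2. CPK4 and CPK11, a pair that acts in abscisic acid signalling, changed by 1.21 and 1.14. CIPK14, a kinase that CBL calcium sensors regulate, had 123 and 101.1 FPKM with Al, against 29.1 and 33.2 FPKM without Al (1.82), in a list of 34 CBL and CIPK genes with 3 higher and 3 lower by at least 2-fold (8.82% each), or 1 lower without any 1 of the 4 cml24-2 libraries. CNGC13, CNGC19, GLR1.2, CPK4 and CPK11 share reads with other genes.

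Glutathione transferases, detoxifying enzymes that couple glutathione to reactive and foreign compounds, held many rises. Of 25 tau class genes, 13 rose (52.0%) and 3 fell by at least 2-fold, and of 12 phi class genes 6 rose (50.0%) and 2 fell. GSTU24 had 29.4 and 30.6 FPKM with Al, against 2.70 and 2.01 FPKM without Al (log2 fold change 3.64, SE 0.18, edgeR adjusted p = 1.5e-06). GSTU8 had 221 and 204 FPKM with Al, against 23.1 and 25.9 FPKM without Al (3.10). Both tau genes stood in a range below every Al library when Al was absent. The phi genes were abundant. GSTF2 had 483 and 586 FPKM with Al, against 93.9 and 69.7 FPKM without Al (2.68). GSTF6 had 426 and 457 FPKM with Al, against 95.1 and 92.3 FPKM without Al (2.21). These libraries did not overlap between the groups. A few members went the other way. GSTF14 had 66.9 and 72.9 FPKM with Al, against 381 and 439 FPKM without Al (-2.58). GSTU14 had 0.60 and 0.61 FPKM with Al, against 26.4 and 24.1 FPKM without Al (-5.38). GSTF2 and GSTF6 share reads with other genes. GGCT2;1, which recycles glutathione, had 1.05 and 0.75 FPKM with Al, against 0.07 and 0.07 FPKM without Al, which is 12-fold higher (95% counting interval 2.97 to 105).

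Larger enzyme and carrier families were split. Of 106 UDP-glycosyltransferases 14 were at least 2-fold higher and 14 lower (13.2% each), and of 158 cytochrome P450s 18 were higher (11.4%) and 30 lower (19%). UGT87A2 had 22.8 and 24.2 FPKM with Al, against 3.97 and 4.24 FPKM without Al (2.49). UGT71C1 had 18.7 and 21.4 FPKM with Al, against 75.5 and 92.1 FPKM without Al (-2.09). The 2 glycosyltransferases moved in opposite directions, each with groups that did not overlap. CYP706A2 had 121 and 112 FPKM with Al, against 35.3 and 40.4 FPKM without Al (1.60). CYP705A3 had 2.07 and 1.98 FPKM with Al, against 23.3 and 28.5 FPKM without Al (-3.70). CYP702A2 had 5.71 and 5.78 FPKM with Al, against 34.4 and 31.2 FPKM without Al (-2.59). The P450s chosen here likewise went both ways. The MATE family had 7 of 42 members at least 2-fold higher and 8 lower. Without cml24-2 control library 2 these were 4 and 5, and without Al library 2 the count higher was 4. AT1G71140, a MATE gene, had 24.2 and 14.0 FPKM with Al, against 0.09 and 0.18 FPKM without Al (log2 fold change 7.06, SE 0.43, edgeR adjusted p = 5e-06). AT3G26590 of the same family had 9.62 and 8.71 FPKM with Al, against 32.8 and 32.8 FPKM without Al (-1.87). CYP706A2 and AT3G26590 share reads with other genes.

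Genes of mitochondrial retrograde signalling, which answer impaired respiration, changed in both directions, with more rises. Of 19, 5 rose by at least 2-fold (26.3%) and 2 fell (1 without cml24-2 control library 2), with a median of 0.74. AOX1A, the alternative oxidase, had 40.6 and 36.2 FPKM with Al, against 20.5 and 19.7 FPKM without Al (log2 fold change 0.91, just under 2-fold). The external dehydrogenase gene NDB2 had 35.9 and 30.0 FPKM with Al, against 19.5 and 19.0 FPKM without Al (0.74). Both respiratory genes were under 2-fold, whereas the next genes were over it. NAC13, a membrane-bound factor of this pathway, had 29.2 and 29.2 FPKM with Al, against 12.9 and 13.7 FPKM without Al (1.12). NAC053 had 51.2 and 61.1 FPKM with Al, against 22.5 and 22.7 FPKM without Al (1.28). CYP81D8 had 7.51 and 8.19 FPKM with Al, against 1.20 and 1.43 FPKM without Al (log2 fold change 2.55, SE 0.19, edgeR adjusted p = 1.5e-05). The mitochondrial dysfunction motif of CTTG and CAAG with 5 bases of any kind between them, bound by NAC factors of this pathway and searched on both strands, stood before 4 of the 19 genes and before 0.604% of all tested genes. As the motif belongs to this same pathway, its share before the listed genes is no independent result. The motif is shown for CYP81D8 and NDB2, which both rose, in capitals in TAIR10.1 sequence on the strand of the gene.
CYP81D8, chr4:17571846-17571908, strand minus: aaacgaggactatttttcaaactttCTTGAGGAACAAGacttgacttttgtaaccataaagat
NDB2, chr4:2572323-2572385, strand plus: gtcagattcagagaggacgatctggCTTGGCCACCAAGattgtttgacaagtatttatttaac
The other 2 genes with it were NDA1, with 0.31 and 0.04 FPKM with Al, against 1.51 and 1.59 FPKM without Al (-3.16), and AT2G21640, with 4.22 and 4.81 FPKM with Al, against 4.73 and 6.94 FPKM without Al, which did not pass. Its share was 0.893% before all genes at least 2-fold higher and 0.658% before those at least 2-fold lower.

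Abscisic acid genes moved in opposite directions at 2 steps of the pathway. This hormone binds PYR and PYL receptors, which then block protein phosphatases of the ABI1 class. Of 18 phosphatases, synthesis genes and marker genes, 15 rose, 12 of them by at least 2-fold (66.7%), and 0 fell (1 by at least 2-fold without WT control library 2), with a median of 1.3. ABI1 had 87.4 and 73.0 FPKM with Al, against 33.8 and 31.3 FPKM without Al (1.28). ABI2 had 10.9 and 10.2 FPKM with Al, against 2.43 and 2.18 FPKM without Al (2.14). Both phosphatases had every Al library above every library without Al. The homeobox gene HB7 had 53.8 and 55.7 FPKM with Al, against 7.55 and 6.23 FPKM without Al (log2 fold change 2.93, SE 0.16, edgeR adjusted p = 2.8e-06). The dehydration marker RD29A had 66.8 and 59.6 FPKM with Al, against 23.2 and 23.1 FPKM without Al (1.42). LEA4-5, a late embryogenesis abundant protein, had 40.2 and 26.9 FPKM with Al, against 3.91 and 0.56 FPKM without Al (3.88). The LEA4-5 libraries spread widely within each group but did not overlap.

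Of the 10 receptors tested, 5 fell by at least 2-fold (50.0%) and 1 rose, with a median of -0.71. PYL6 had 13.4 and 21.4 FPKM with Al, against 56.0 and 77.1 FPKM without Al (log2 fold change -1.96, SE 0.21, edgeR adjusted p = 0.00011). PYL4 had 70.6 and 95.2 FPKM with Al, against 164 and 214 FPKM without Al (-1.21), PYL5 changed by -1.35 and PYR1 by -1.14. Every one of these had both Al libraries below both libraries without Al. The riser was PYL7, with 13.0 and 13.7 FPKM with Al, against 6.23 and 6.38 FPKM without Al (1.06). PYR1 shares reads with other genes.

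The ethylene and GH3 lists held more rises than falls. Of 18 ethylene genes, 5 rose by at least 2-fold (27.8%) and 0 fell by that much. ACS7, which makes the precursor of ethylene, had 39.8 and 36.0 FPKM with Al, against 15.6 and 10.7 FPKM without Al (1.5). ACS11, of the same enzyme family, had 7.12 and 7.55 FPKM with Al, against 1.31 and 0.54 FPKM without Al (2.95). Neither synthesis gene overlapped between the groups. The receptor gene ERS1 had 64.7 and 64.1 FPKM with Al, against 39.2 and 39.0 FPKM without Al (0.70). EIN2, the membrane protein at the core of the signalling chain, had 30.6 and 31.2 FPKM with Al, against 32.7 and 33.2 FPKM without Al and did not pass. Of 7 GH3 genes, which couple hormones to amino acids, 4 rose by at least 2-fold. GH3.3 had 17.7 and 23.6 FPKM with Al, against 1.52 and 1.68 FPKM without Al (log2 fold change 3.67, SE 0.21, edgeR adjusted p = 3e-06). GH3.2 had 57.9 and 66.9 FPKM with Al, against 14.3 and 17.7 FPKM without Al (1.94). GH3.5 changed by 1.32 and GH3.12 by 3.13 on the log2 scale. GH3.12 (also PBS3) acts in salicylate synthesis, and the other 3 are known to act on auxin. GH3.2 and GH3.3 share reads with other genes.

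Several auxin and gibberellin genes of synthesis and transport fell. TAA1, an auxin synthesis enzyme, had 3.19 and 2.88 FPKM with Al, against 9.28 and 8.07 FPKM without Al (-1.54). The auxin exporter PIN4 had 4.61 and 5.20 FPKM with Al, against 13.5 and 14.1 FPKM without Al (-1.51). These were the 2 of 9 such genes that fell by at least 2-fold (22.2%), while 0 rose by that much. GA20OX2, a gibberellin synthesis oxidase, had 0.79 and 1.08 FPKM with Al, against 6.08 and 5.59 FPKM without Al (-2.66). GA20OX3 had 0.05 and 0 FPKM with Al, against 1.49 and 1.65 FPKM without Al and was 61.1-fold lower (95% counting interval 10.6 to 2450.0). Of 10 gibberellin oxidases, 3 fell by at least 2-fold and 0 rose by that much, and without cml24-2 control library 2 the count higher was 1. GA2OX2, which inactivates gibberellin, had 42.5 and 42.1 FPKM with Al, against 20.2 and 22.6 FPKM without Al (0.97).

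Of 63 WRKY factors, which bind W-boxes and act chiefly in defence, 17 rose (27.0%) and 10 fell (15.9%) by at least 2-fold, and without cml24-2 control library 2 the count lower was 6. WRKY70 had 43.3 and 49.2 FPKM with Al, against 5.12 and 3.21 FPKM without Al (log2 fold change 3.45, SE 0.33, edgeR adjusted p = 5.9e-05). WRKY51 had 40.3 and 38.8 FPKM with Al, against 6.11 and 5.68 FPKM without Al (2.72). WRKY22 had 11.7 and 9.54 FPKM with Al, against 50.3 and 46.6 FPKM without Al (-2.21). Of 11 salicylate and immunity genes, 8 rose, 5 of them by at least 2-fold (45.5%, or 3 genes without Al library 1). EDS1 had 57.0 and 61.1 FPKM with Al, against 23.2 and 22.5 FPKM without Al (1.36). SAG101 had 77.0 and 82.8 FPKM with Al, against 36.0 and 32.3 FPKM without Al (1.34). Both act together in immune signalling, and their groups did not overlap. EDS1 shares reads with other genes. The W-box letters TTGACC stood before 16.0% of the genes at least 2-fold higher, 13.1% of those lower and 12.4% of all tested, on either strand.

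The barrier genes of the endodermis split by the kind of barrier. Suberin is a waxy layer laid on the inner wall of endodermal cells, and the Casparian strip is a lignin ring that closes the gaps between them. All 19 suberin genes tested rose, 14 of them by at least 2-fold (73.7%, and 12 to 14 genes with any 1 library left out), with a median of 1.28. Of 10 Casparian strip genes, 8 fell by at least 2-fold (80.0%, and 7 to 8 genes with any 1 library left out) and 0 rose, with a median of -2.59. The 2 remaining Casparian genes were not called.

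MYB41, a factor that can switch on suberin synthesis, had 32.0 and 29.3 FPKM with Al, against 7.49 and 6.81 FPKM without Al (log2 fold change 2.07, SE 0.28, edgeR adjusted p = 0.00039). CYP86B1, which oxidises very long fatty acids, had 85.8 and 78.1 FPKM with Al, against 21.7 and 25.4 FPKM without Al (1.78). ASFT, which adds ferulate, had 147 and 159 FPKM with Al, against 48.3 and 62.5 FPKM without Al (1.44). The transporter gene ABCG6 had 123 and 115 FPKM with Al, against 35.2 and 50.3 FPKM without Al (1.45). GPAT5, an acyltransferase, had 38.7 and 36.4 FPKM with Al, against 12.1 and 18.4 FPKM without Al (1.28). The libraries of the groups did not overlap in any of these 5 genes.

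The CASP genes encode the membrane proteins that mark the place of the strip. CASP1 had 9.71 and 12.01 FPKM with Al, against 92.0 and 102 FPKM without Al (log2 fold change -3.18, SE 0.13, edgeR adjusted p = 6.8e-07). CASP2 had 2.47 and 4.19 FPKM with Al, against 47.0 and 43.3 FPKM without Al (-3.78). CASP4 had 0.17 and 0 FPKM with Al, against 13.7 and 14.9 FPKM without Al and was 174-fold lower (95% counting interval 47.7 to 1440.0). In each of these 3 genes the libraries with Al lay far below those without it. The lignin-polymerising peroxidase gene PER64 had 11.1 and 10.9 FPKM with Al, against 66.4 and 70.1 FPKM without Al (-2.66). ESB1, a dirigent-like protein of the strip, had 23.1 and 24.3 FPKM with Al, against 131 and 135 FPKM without Al (-2.51). MYB36, the factor that switches on this set, had 22.8 and 20.2 FPKM with Al, against 22.8 and 18.5 FPKM without Al (log2 fold change 0.04, SE 0.13, edgeR adjusted p = 0.83). Its groups overlapped, unlike those of the 5 genes given before it.

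**Figure D3:**
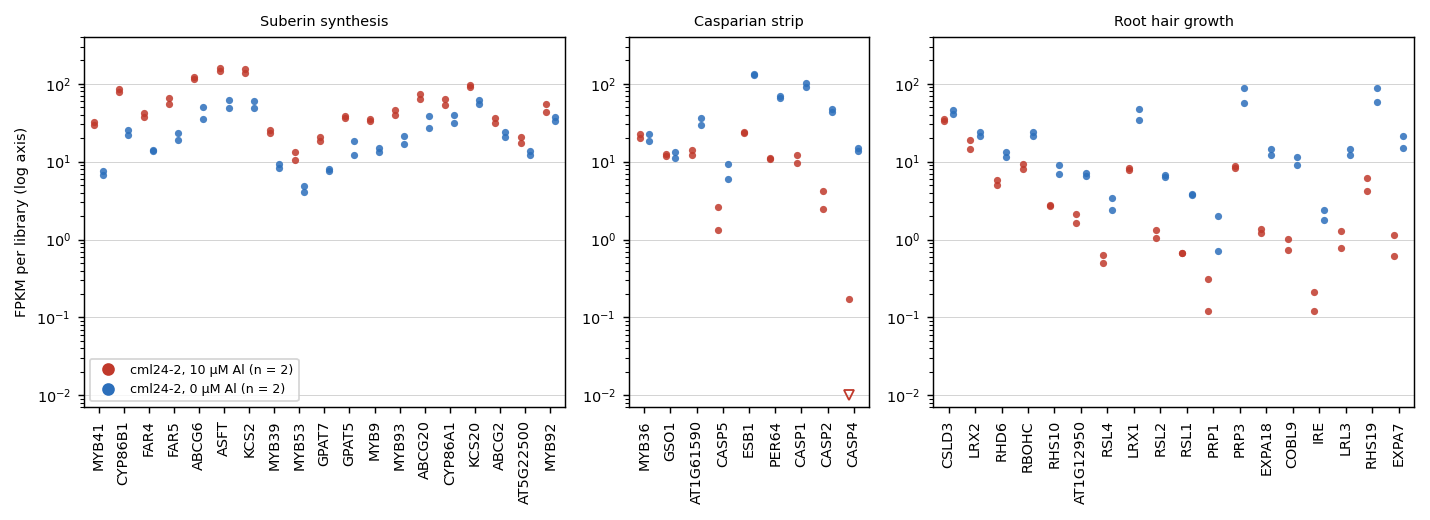
FPKM (log axis) in each cml24-2 library with Al (red, n = 2) and without Al (blue, n = 2) for 19 suberin, 9 of the 10 Casparian strip and 18 root hair genes, ordered by log2 fold change within each panel. An open triangle at the bottom marks a library in which the gene was not listed. CYP86B1 had 85.8 and 78.1 FPKM with Al, against 21.7 and 25.4 FPKM without Al. CASP1 had 9.71 and 12.01 FPKM with Al, against 92.0 and 102 FPKM without Al. EXPA7 had 1.14 and 0.61 FPKM with Al, against 14.9 and 21.2 FPKM without Al.

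Root hair genes fell. Of 18 tested, 16 fell by at least 2-fold (88.9%) and 0 rose, with a median of -2.48. The falls included regulators and wall proteins. RHD6, which starts hair formation, had 5.06 and 5.84 FPKM with Al, against 13.2 and 11.4 FPKM without Al (-1.20). RSL4, which sets hair growth, had 0.50 and 0.63 FPKM with Al, against 2.42 and 3.42 FPKM without Al (-2.37). The hair expansin EXPA7 had 1.14 and 0.61 FPKM with Al, against 14.9 and 21.2 FPKM without Al (log2 fold change -4.38, SE 0.29, edgeR adjusted p = 7.2e-06). COBL9, a wall-anchoring protein, had 0.74 and 1.03 FPKM with Al, against 9.13 and 11.6 FPKM without Al (-3.57). RBOHC, the oxidase that makes reactive oxygen in growing hairs, had 8.07 and 9.23 FPKM with Al, against 21.2 and 24.2 FPKM without Al (-1.42). No library with Al reached the level of a library without it in these genes. The cellulose synthase-like gene CSLD3 had 35.2 and 33.0 FPKM with Al, against 46.7 and 40.4 FPKM without Al and did not pass. LRX2, a wall protein with leucine-rich repeats, had 19.1 and 14.6 FPKM with Al, against 21.5 and 24.1 FPKM without Al and did not pass. CSLD3 shares reads with another gene.

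Markers of other root tissues were mixed. The root cap factors SMB, BRN1 and BRN2 fell by 1.09, 1.24 and 1.26 on the log2 scale, and 4 of 5 root cap genes fell by at least 2-fold while 1 rose by less. Of 8 meristem regulators 5 fell and 1 rose. PLT1, which maintains the stem cell region, was the 1 to fall by 2-fold, with 6.67 and 7.18 FPKM with Al, against 12.9 and 14.5 FPKM without Al (-1.01), and PLT1 was under 2-fold without WT control library 1, cml24-2 control library 2 or Al library 1. WOX5, the marker of the stem cell organiser, had 3.22 and 4.68 FPKM with Al, against 2.54 and 4.06 FPKM without Al and did not pass. Among 8 xylem and phloem genes 7 were not called. CESA4 and CESA8, which make secondary wall cellulose, had log2 fold changes of -0.23 and -0.19, and the phloem sugar carrier gene SUC2 had 0.39. The 1 that fell by 2-fold, VND7, a switch of vessel formation, had 1.15 and 0.79 FPKM with Al, against 2.26 and 2.01 FPKM without Al (log2 fold change -1.12, SE 0.29, edgeR adjusted p = 0.012), a call that ended without cml24-2 control library 1 (edgeR adjusted p = 0.06) or Al library 2 (0.09).

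Wall-loosening and wall-protein genes changed in large numbers. Of 27 xyloglucan transglucosylases, which cut and rejoin the tethers between cellulose fibres, 9 rose (33.3%) and 8 fell (29.6%) by at least 2-fold. XTH24 had 538 and 612 FPKM with Al, against 78.1 and 59.8 FPKM without Al (log2 fold change 3.04, SE 0.24, edgeR adjusted p = 2.1e-05). XTH22 (also TCH4, a touch gene) had 394 and 421 FPKM with Al, against 157 and 100.1 FPKM without Al (1.64). These 2 genes rose, and the next 2 fell. XTH15 had 17.8 and 17.1 FPKM with Al, against 51.4 and 56.0 FPKM without Al (-1.64). XTH8 had 6.93 and 5.56 FPKM with Al, against 39.3 and 40.1 FPKM without Al (-2.69). Of 24 expansins, 2 rose and 7 fell by at least 2-fold (29.2%), and without either cml24-2 control library or Al library 1 the count higher was 1. EXPA14 had 3.64 and 5.68 FPKM with Al, against 65.7 and 77.2 FPKM without Al (-3.96). EXPB1 had 0.33 and 0.29 FPKM with Al, against 14.0 and 17.6 FPKM without Al (-5.62).

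Extensins, rod-like glycoproteins that stiffen walls, were among the genes with the largest differences in FPKM. Of 6 in the list, 1 rose and 4 fell by at least 2-fold (66.7%). EXT4 had 2761 and 2975 FPKM with Al, against 591 and 669 FPKM without Al (log2 fold change 2.17, SE 0.16, edgeR adjusted p = 1.5e-05). AT2G43150, extensin-like, had 8484 and 8316 FPKM with Al, against 4364 and 4552 FPKM without Al (0.89). EXT3 had 8117 and 8091 FPKM with Al, against 12229 and 11738 FPKM without Al (log2 fold change -0.59, SE 0.16, edgeR adjusted p = 0.015), a call that ended without cml24-2 control library 1 (edgeR adjusted p = 0.065) or Al library 1 (0.072) or 2 (0.075). EXT13 had 0.14 and 0.21 FPKM with Al, against 26.4 and 37.4 FPKM without Al (-7.48). EXT3 overlaps AT1G21313, of unknown function, on the opposite strand over 522 bases. AT1G21313 had 18792 and 20038 FPKM with Al, against 28066 and 28849 FPKM without Al (-0.58), and its call ended without any 1 of the 4 cml24-2 libraries (edgeR adjusted p of 0.066 to 0.11). AT1G26250, extensin-like, had 1034 and 1155 FPKM with Al, against 2939.7 and 3670.1 FPKM without Al (-1.62) and overlaps AT1G26255 over 1609 bases. AT1G26255 had 1775 and 1899 FPKM with Al, against 4906 and 6299 FPKM without Al (-1.63), and neither pair can be separated without strand. The counts of EXT3, EXT4, EXT13, AT1G26250 and AT2G43150 include shared reads.

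Arabinogalactan proteins are sugar-rich proteins of the cell surface. Of 40 arabinogalactan and fasciclin-like proteins 5 rose and 15 fell by at least 2-fold (37.5%). AGP2 had 1065 and 1012 FPKM with Al, against 175 and 179 FPKM without Al (2.53). AGP31 had 291 and 322 FPKM with Al, against 1813 and 1994 FPKM without Al (-2.63). FLA9 had 26.9 and 30.8 FPKM with Al, against 163 and 161 FPKM without Al (-2.51). The counts of AGP31 include shared reads.

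Among secreted enzymes of the wall more genes fell than rose. Of 55 class III peroxidases 9 rose (16.4%) and 18 fell (32.7%) by at least 2-fold, of 39 pectin methylesterases and their inhibitors 4 rose and 16 fell (41.0%), and of 50 pectin lyase-like proteins 6 rose and 15 fell (30.0%), with 3 higher in the last family without cml24-2 control library 1. The peroxidase AT4G36430 had 641 and 639 FPKM with Al, against 41.0 and 53.0 FPKM without Al (log2 fold change 3.74, SE 0.14, edgeR adjusted p = 4.2e-07). AT5G24070 of the same family had 2.44 and 2.38 FPKM with Al, against 50.9 and 53.0 FPKM without Al (-4.45). AT1G05250 had 5.20 and 6.54 FPKM with Al, against 142 and 196 FPKM without Al (-4.87). These peroxidases moved in opposite directions. AT3G10720, of the pectin methylesterase family, had 27.0 and 30.0 FPKM with Al, against 260.1 and 311 FPKM without Al (-3.35). AT4G25250, annotated with the inhibitors, had 0.28 and 0.09 FPKM with Al, against 15.8 and 19.2 FPKM without Al (-6.48). AT1G05250 shares reads with other genes.

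Most aquaporins, the water channels of membranes, fell. Of 32 tested, 19 fell, 15 of them by at least 2-fold (46.9%), and 5 rose, 2 of them by at least 2-fold, with a median of -0.81, and without either cml24-2 control library or Al library 1 the count higher was 1. TIP2;2, of the vacuolar membrane, had 24.9 and 23.7 FPKM with Al, against 99.7 and 114 FPKM without Al (log2 fold change -2.16, SE 0.16, edgeR adjusted p = 1.4e-05). TIP1;2 had 332 and 341 FPKM with Al, against 846 and 877 FPKM without Al (-1.38). The 2 vacuolar channels differ in abundance but not in direction. PIP2A (also PIP2;1), of the plasma membrane, had 198 and 230.4 FPKM with Al, against 556 and 552 FPKM without Al (-1.39). NIP1;1 had 2.24 and 2.19 FPKM with Al, against 61.3 and 60.8 FPKM without Al (-4.76). Both libraries with Al lay below both without Al in these 4 genes, and TIP1;2, PIP2A and NIP1;1 share reads with other genes.

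The machinery for making ribosomes was lower throughout the list. All 12 ribosome biogenesis genes fell, 8 of them by at least 2-fold (66.7%), with a median of -1.13. FIB2, a fibrillarin that methylates ribosomal RNA, had 42.5 and 46.7 FPKM with Al, against 172 and 153 FPKM without Al (log2 fold change -1.89, SE 0.13, edgeR adjusted p = 9.1e-06). NUC1, a nucleolin, had 144 and 136 FPKM with Al, against 326 and 287 FPKM without Al (-1.15). Neither gene overlapped between the groups. CBF5, a pseudouridine synthase, had 42.9 and 38.9 FPKM with Al, against 132 and 115 FPKM without Al (-1.62). NOP56, of the same list, had 78.3 and 72.3 FPKM with Al, against 199 and 183 FPKM without Al (-1.37). The telo box AAACCCTA, found before many ribosomal protein genes and searched on both strands, stood before 4 of the 12 and before 3.55% of all tested genes. It stood before 1.62% of all genes at least 2-fold higher and 3.62% of those at least 2-fold lower. The 8 genes of the list without the box fell too. The 4 stretches show where it lay (TAIR10.1, strand of the gene, box in capitals).
NOP56, chr1:20986953-20986994, strand minus: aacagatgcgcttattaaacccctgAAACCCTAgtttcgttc
FIB1, chr5:21293915-21293972, strand plus: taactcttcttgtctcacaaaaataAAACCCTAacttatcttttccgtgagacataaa
AT5G27120, chr5:9540792-9540849, strand plus: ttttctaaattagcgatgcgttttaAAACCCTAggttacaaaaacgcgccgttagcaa
AT2G40360, chr2:16856775-16856832, strand minus: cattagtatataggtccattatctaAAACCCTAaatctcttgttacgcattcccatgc
FIB1 changed by -0.80, AT5G27120 by -1.51 and AT2G40360 by -1.03. The box stood before 3.62% of all genes at least 2-fold lower and 1.62% of those higher. NOP56, FIB1, FIB2 and AT5G27120 share reads with other genes.

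Genes of the cell cycle fell by less. Of 12 replication genes 11 fell, 2 by at least 2-fold (16.7%), and of 15 mitotic genes 13 fell, 3 by at least 2-fold (20%). Without cml24-2 control library 1 the replication count was 1, and without Al library 1 the mitotic count was 8. PCNA1, the sliding clamp of replication, had 10.5 and 11.6 FPKM with Al, against 24.9 and 21.5 FPKM without Al (log2 fold change -1.09, SE 0.13, edgeR adjusted p = 0.00021). CDT1A, which licenses origins, had 7.22 and 7.16 FPKM with Al, against 14.9 and 16.4 FPKM without Al (-1.15). MCM2, of the helicase, had 10.2 and 9.10 FPKM with Al, against 14.7 and 14.1 FPKM without Al (-0.61). All 3 replication genes had both Al libraries below both libraries without Al. The mitotic cyclin CYCB1;2 had 8.03 and 6.26 FPKM with Al, against 14.7 and 15.2 FPKM without Al (-1.08). The kinase AUR2 had 3.48 and 2.86 FPKM with Al, against 9.12 and 9.88 FPKM without Al (-1.69). KNOLLE, which closes the cell plate, had 10.0 and 7.90 FPKM with Al, against 16.4 and 15.6 FPKM without Al (-0.86). Of 42 core histone genes 25 fell, 7 by at least 2-fold (11 without Al library 1), and 3 rose, 1 by at least 2-fold. CYCB1;2 shares reads with another gene. The shoot markers, which summed to 69.4 and 78.9 FPKM with Al and to 116 and 159 FPKM without Al, moved the same way, and their part in the result was not tested.

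The E2F site GGCGGGAA, searched on both strands, stood before 4 of the 12 replication genes and before 0.540% of all tested genes. Those 4 stretches follow in TAIR10.1 sequence on the strand of the gene, with the site in capitals, and they are shown because E2F factors are known to switch on replication genes.
MCM2, chr1:16970176-16970213, strand plus: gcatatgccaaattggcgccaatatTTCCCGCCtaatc
MCM3, chr5:18773736-18773793, strand minus: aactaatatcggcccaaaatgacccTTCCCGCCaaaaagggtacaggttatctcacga
MCM5, chr2:3527501-3527543, strand minus: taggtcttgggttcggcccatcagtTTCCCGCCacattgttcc
PCNA2, chr2:12651754-12651787, strand minus: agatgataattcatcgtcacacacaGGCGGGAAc
MCM3, MCM5 and PCNA2 changed by -0.53, -0.38 and -0.68. Across all genes the site stood before 0.244% of those at least 2-fold higher and 0.384% of those lower. The calls of MCM3 and MCM5 each ended without cml24-2 control library 1 (edgeR adjusted p = 0.068 and 0.085), Al library 1 (0.075 and 0.075) or Al library 2 (0.058 and 0.081). The mitosis-specific core AACGG stood before 10 of 15 mitotic genes (66.7%) and 22 of 42 histone genes (52.4%), against 21.7% of all tested.

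**Figure D4:**
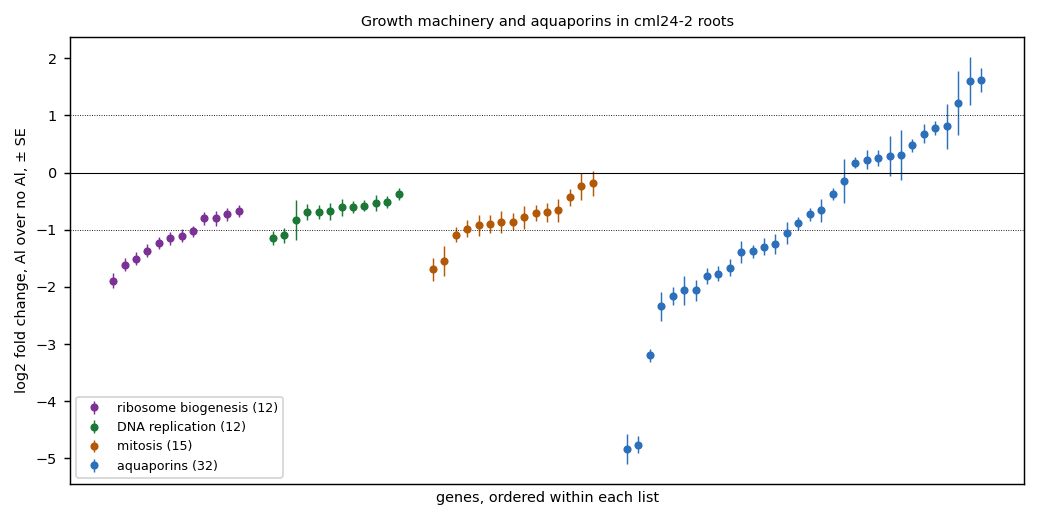
Log2 fold change with Al over without Al (y axis, points, with bars of 1 SE) in cml24-2 roots for 12 ribosome biogenesis, 12 replication, 15 mitotic and 32 aquaporin genes, ordered within each list (x axis), n = 2 libraries a group. Dotted lines mark 2-fold. The ribosome biogenesis genes lie between -1.89 (FIB2) and -0.67 (AT5G15550), and the aquaporins reach -4.83 (TIP4;1).

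Recycling and starvation genes rose in part. Of 32 autophagy genes 19 rose, 4 by at least 2-fold (12.5%), and 1 fell, with a median of 0.51. ATG8H, which coats the membrane of the autophagosome, had 85.6 and 74.1 FPKM with Al, against 27.5 and 23.8 FPKM without Al (1.62). ATG8D had 137 and 116 FPKM with Al, against 45.2 and 45.4 FPKM without Al (1.46). ASN1, an asparagine synthetase switched on by low sugar, had 132 and 171 FPKM with Al, against 24.9 and 15.4 FPKM without Al (log2 fold change 2.88, SE 0.46, edgeR adjusted p = 0.00093). PPDK had 23.47 and 27.2 FPKM with Al, against 6.80 and 4.81 FPKM without Al (2.1). In that list of 18 sugar starvation and amino acid breakdown genes, 3 rose by at least 2-fold and 0 fell by that much.

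In the iron and nitrate lists more genes fell than rose. Of 23 iron genes, 8 fell by at least 2-fold (34.8%) and 1 rose (2 without cml24-2 control library 2). The iron importer IRT1 had 82.9 and 108 FPKM with Al, against 309 and 426 FPKM without Al (log2 fold change -1.93, SE 0.23, edgeR adjusted p = 0.00021). The ferric reductase FRO2 had 42.2 and 59.9 FPKM with Al, against 200.01 and 245 FPKM without Al (-2.15). Their regulator FRU (also FIT) had 13.3 and 16.1 FPKM with Al, against 50.2 and 78.0 FPKM without Al (-2.14). Importer, reductase and regulator all fell by similar amounts. OPT3, which loads iron into the phloem, had 19.9 and 22.1 FPKM with Al, against 6.57 and 7.68 FPKM without Al (1.53), and BHLH38 and BHLH39, factors that rise when iron is low, had log2 fold changes of 0.22 and 0.72 and did not pass.

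Of 18 nitrate genes, 7 fell by at least 2-fold (38.9%) and 1, NIA1, rose. The nitrate transporter and sensor NRT1.1 had 70.4 and 84.5 FPKM with Al, against 203 and 297 FPKM without Al (-1.71). BT1 had 32.3 and 39.5 FPKM with Al, against 151 and 129 FPKM without Al (-1.98). The reductase NIA1 had 318 and 337 FPKM with Al, against 106 and 127 FPKM without Al (log2 fold change 1.47, SE 0.13, edgeR adjusted p = 3.2e-05). NIA2, the other reductase gene, had 179 and 174 FPKM with Al, against 141 and 161 FPKM without Al and did not pass. Of 19 phosphate starvation genes 1 was at least 2-fold higher and 1 lower (5.26% each). They were RNS1, a ribonuclease, with 9.74 and 6.06 FPKM with Al, against 0.52 and 0.82 FPKM without Al (3.52), and the phosphate importer PHT1;1, with 138 and 145 FPKM with Al, against 488 and 676 FPKM without Al (-2.07). Without Al library 2 the phosphate genes at least 2-fold higher numbered 4, without control library 1 they numbered 2, and without Al library 1 those lower numbered 2. The sulfate importer SULTR1;2 had 10.96 and 16.1 FPKM with Al, against 75.0 and 102 FPKM without Al (-2.73), in a list of 12 sulfate genes with 2 higher and 2 lower by at least 2-fold, or 1 higher without cml24-2 control library 2. PHT1;1 shares reads with other genes.

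In the remaining lists at most 3 genes were over 2-fold in either direction. Those at least 2-fold higher and lower numbered 3 and 1 of 21 lignin genes (1 higher without cml24-2 control library 1, 2 lower without Al library 2), 2 and 3 of 13 indole glucosinolate and camalexin genes (15.4% and 23.1%), and 1 and 0 of 7 flavonoid genes (0 higher without cml24-2 control library 1 or Al library 2). They numbered 3 and 0 of 19 ERF, CBF and ZAT stress factors. Of these, 5 were higher without WT control library 1 and 1 without cml24-2 control library 2 or Al library 1, and 1 was lower without either WT control library or cml24-2 control library 2. They were 2 and 0 of 9 heat shock genes (22.2% higher, 1 gene without Al library 1) and 1 and 0 of 9 endoplasmic reticulum stress genes (0 higher without cml24-2 control library 2 or Al library 1). The 12 hypoxia genes had 1 and 1 (2 higher without cml24-2 control library 2). Among hormones they were 1 and 0 of 11 jasmonate genes (1 lower without either cml24-2 control library or Al library 1), 2 and 2 of 25 Aux/IAA repressors, and 1 and 1 of 13 cytokinin genes. Of 12 JAZ repressors 2 rose in the edgeR test and 0 fell, none by 2-fold (1 higher by 2-fold without either WT control library). The 9 proton pumps had 2 (22.2%) and 0. The 22 U-box ubiquitin ligases had 1 and 2, with 2 higher without WT control library 1, cml24-2 control library 1 or Al library 2, and 1 lower without that control library or either Al library. Among their members, the proton pump AHA7 had 76.9 and 68.2 FPKM with Al, against 23.2 and 29.7 FPKM without Al (1.44). The zinc finger gene ZAT7 had 31.6 and 16.9 FPKM with Al, against 3.84 and 1.25 FPKM without Al (3.22). The ubiquitin ligase gene PUB54 had 48.3 and 39.9 FPKM with Al, against 0.70 and 1.26 FPKM without Al (5.45). ZAT7 shares reads with other genes.

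Among single genes, several of the largest rises started at or near 0. CIB1, a basic helix-loop-helix factor, had 3.65 and 1.19 FPKM with Al, against 0 and 0 FPKM without Al, at least 25.3-fold higher when the control libraries, taken as a pair, are set to a floor of 3 counts. ARD3, of the methionine salvage cycle, was 54.9-fold higher (95% counting interval 18.5 to 269) and the peroxidase AT5G19880 90.9-fold higher (95% counting interval 15.9 to 3630.0). The zinc finger gene AT3G46080 had 108 and 94.9 FPKM with Al, against 4.20 and 2.26 FPKM without Al (4.94). AT3G60415, annotated as a phosphoglycerate mutase family gene, had 11.3 and 14.8 FPKM with Al, against 0.43 and 0.34 FPKM without Al (5.03). CIB1 overlaps AT4G34540 over 1784 bases and shares reads, and AT3G46080 shares reads with other genes. The other largest rises not described above were AT5G47380, a protein of unknown function, at 51.9-fold higher (95% counting interval 17.4 to 254), AT5G16740, an amino acid transporter family gene, at 41.4-fold higher (95% counting interval 11.1 to 348), and PP2-B7, a phloem protein family gene, at 38.9-fold higher (95% counting interval 10.4 to 327).

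The largest falls ended at or near 0. CYP710A3, a sterol desaturase, had 0 and 0 FPKM with Al, against 9.18 and 15.8 FPKM without Al, at least 159-fold lower by the same floor. The lipid-transfer family held several: AT5G46900 was at least 150-fold lower, AT4G12520 at least 82.5-fold lower, AT4G22460 299-fold lower (95% counting interval 53.3 to 11900.0). AT4G12510 had 0 and 0.75 FPKM with Al, against 86.0 and 104 FPKM without Al (-7.97). AT3G19430, related to late embryogenesis abundant proteins, had 0.15 and 0.17 FPKM with Al, against 58.5 and 54.7 FPKM without Al (log2 fold change -8.50, SE 0.26, edgeR adjusted p = 3.5e-07). AT5G28960, annotated as a fucosyltransferase, was at least 46.7-fold lower, the cupin gene AT5G39180 at least 21.7-fold, the pectin lyase-like AT1G05650 at least 29.4-fold, the prenyltransferase gene cPT9 at least 20.4-fold and AT3G01730 at least 15.4-fold. AT4G22463 overlaps AT4G22460 on the opposite strand over 575 bases and was 345-fold lower (95% counting interval 61.4 to 13600.0). CYP710A3, AT5G46900, AT4G12510, AT4G12520, AT5G39180, AT1G05650 and cPT9 share reads with other genes, and floors and intervals cover counting error only.

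The largest gains in FPKM beside extensins were MT1A, a metallothionein, with 13393 and 12428 FPKM with Al, against 9756 and 10112 FPKM without Al, and 2 glycine-rich protein genes. AT1G55990 had 2083 and 2095 FPKM with Al, against 538 and 722 FPKM without Al (1.71). AT4G33610 had 1915 and 1879 FPKM with Al, against 522 and 640.5 FPKM without Al (1.68). MT1A overlaps AT1G07590 over 418 bases, and its call (log2 fold change 0.36) ended without any 1 of the 4 cml24-2 libraries (edgeR adjusted p of 0.056 to 0.15). AT3G22620, of the lipid-transfer family, had 1313 and 1388 FPKM with Al, against 282 and 364 FPKM without Al (2.04). AT4G09035, of unknown function, and AT4G38080, a hydroxyproline-rich protein, changed by 1.13 and 1.25. Among the 8 largest losses in FPKM were 3 genes of 2 families. AT5G33355, defensin-like, had 325 and 258 FPKM with Al, against 3516 and 3782 FPKM without Al (-3.67). AT3G59930, also defensin-like, had 133 and 144 FPKM with Al, against 1365 and 1556 FPKM without Al (-3.42). AT5G06645, gibberellin-regulated-like, had 264 and 226 FPKM with Al, against 1547 and 1897 FPKM without Al (-2.84). MT1A, AT1G55990, AT4G33610, AT5G33355, AT3G59930 and AT5G06645 share reads, and AT3G22620, AT4G09035, AT4G38080 and AT5G06645 overlap another gene.

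The response of cml24-2 roots differed from that of WT roots in few genes when the difference itself was tested (edgeR, the interaction of genotype and Al). Of 20262 genes, 20 had a log2 fold change with Al higher in cml24-2 (0.0987%) and 41 a lower one (0.202%). Among the 1363 list genes 14 differed (1.03%). Class III peroxidases held 4 of 55, xyloglucan transglucosylases 2 of 27, extensins 1 of 6 and arabinogalactan and fasciclin-like proteins 1 of 40. At an unadjusted edgeR p under 0.05 those lists had 18, 8, 6 and 15, and DESeq2 called 7, 5, 3 and 4. In the aluminium exclusion, suberin, Casparian strip, root hair, ribosome biogenesis and aquaporin lists edgeR called 0, at an unadjusted p under 0.05 it had 3, 2, 5, 6, 0 and 6, and DESeq2 called 1, 0, 0, 0, 0 and 2. A difference that was not called is not shown to be absent. In WT, ALMT1 had 27.15 and 23.46 FPKM with Al, against 0.42 and 0.54 FPKM without Al (log2 fold change 5.74). The cml24-2 libraries without Al stood higher, at 2.93 and 1.60 FPKM. The ALMT1 difference of -2.24 (SE 0.398, edgeR adjusted p = 0.061) was not called. The median of the aluminium exclusion list was 0.96 in cml24-2 and 1.12 in WT. Side by side, suberin genes at least 2-fold higher numbered 14 in cml24-2 and 15 in WT, Casparian strip genes at least 2-fold lower 8 and 8, and root hair genes at least 2-fold lower 16 and 15. The 2 WT control libraries were further apart than the other pairs (16.7 in chi-square per degree of freedom, against 3.90 to 7.07). Without WT control library 1 the calls were 269 higher and 213 lower, without WT control library 2 they were 67 and 226, and with any other library left out they were 2 to 6 and 10 to 24. DESeq2 called 69 and 122.

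In several of these genes the controls stood further apart between the genotypes than the libraries with Al. PRX52, a peroxidase of lignin formation, had 75.4 and 73.0 FPKM in cml24-2 with Al, 6.62 and 5.74 in cml24-2 without Al, 91.8 and 78.2 in WT with Al and 0.95 and 0.32 in WT without Al (difference -3.52, SE 0.33, edgeR adjusted p = 0.0043). The WT controls stood lowest. GSTU22, a tau glutathione transferase, had 128 and 129 FPKM in cml24-2 with Al, 14.8 and 17.9 in cml24-2 without Al, 125 and 127 in WT with Al and 1.56 and 2.74 in WT without Al (difference -2.95, SE 0.26, edgeR adjusted p = 0.0026). The peroxidase AT4G36430 and GA2OX2 also had the WT controls as their lowest group, with differences of -2.56, SE 0.19, edgeR adjusted p = 0.0013 and -2.64, SE 0.22, edgeR adjusted p = 0.0026. In these 4 genes the call held with each of the 8 libraries left out. EXT4 differed by -1.68, SE 0.22, edgeR adjusted p = 0.02, with 2761 and 2975 FPKM in cml24-2 with Al, 591 and 669 in cml24-2 without Al, 1937 and 2271 in WT with Al and 131 and 168 in WT without Al, a call kept in 2 of the 8 leave-outs, those of WT control library 1 and 2. AGP22, an arabinogalactan peptide, had 14.8 and 14.0 FPKM in cml24-2 with Al, 39.8 and 32.9 in cml24-2 without Al, 14.2 and 15.1 in WT with Al and 194 and 142 in WT without Al (difference 2.12, SE 0.23, edgeR adjusted p = 0.0086). That call ended without either WT Al library or either cml24-2 Al library (adjusted p up to 0.081 in edgeR). PRX52 and EXT4 share reads with other genes.

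The other differences followed several patterns. XTH4 had 136 and 172 FPKM in cml24-2 with Al, 126.4 and 126.0 in cml24-2 without Al, 48.7 and 51.4 in WT with Al and 142 and 134 in WT without Al (difference 1.69, SE 0.17, edgeR adjusted p = 0.0053), a call that ended without WT Al library 1 (edgeR adjusted p = 0.057). MSRB6, a methionine sulfoxide reductase, and AT4G11190, a dirigent-like gene, had log2 fold changes of 0.30 and 0.43 in cml24-2, not called, and fell by 1.95 and 2.69 in WT. Their differences were 2.26, SE 0.33, edgeR adjusted p = 0.033 and 3.12, SE 0.48, edgeR adjusted p = 0.043. NAC011, a factor of the NAC family, and AT5G46130 differed by -3.76 and -4.76. AT2G04050, a MATE gene, had 1.67 and 1.39 FPKM in cml24-2 with Al, 19.6 and 26.0 in cml24-2 without Al, 0.44 and 0.32 in WT with Al and 0.18 and 0.09 in WT without Al (difference -5.45, SE 0.64, edgeR adjusted p = 0.011). AT3G10113 was not listed in either WT control, so its difference of -10.75 depends on the prior count of the fit and is no bound, and UGT74E2, XTH16 and AT3G06990 differed by -4.56, 2.07 and 2.06. All 12 genes with the largest differences but PRX52 lost the call without at least 1 library, with edgeR adjusted p-values up to 0.21. The lost calls were those without 1 of the WT Al libraries or 1 of the 4 cml24-2 libraries, and no call was lost without a WT control library. For the Al response in cml24-2 itself, the call of AT3G10113 ended without either WT Al library (edgeR adjusted p up to 0.054), cml24-2 control library 1 (0.35) or Al library 1 (0.12) or 2 (0.2), and that of UGT74E2 without Al library 1 (0.053). AT2G04050, AT3G10113, AT3G06990 and UGT74E2 share reads with other genes.

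**Figure D5:**
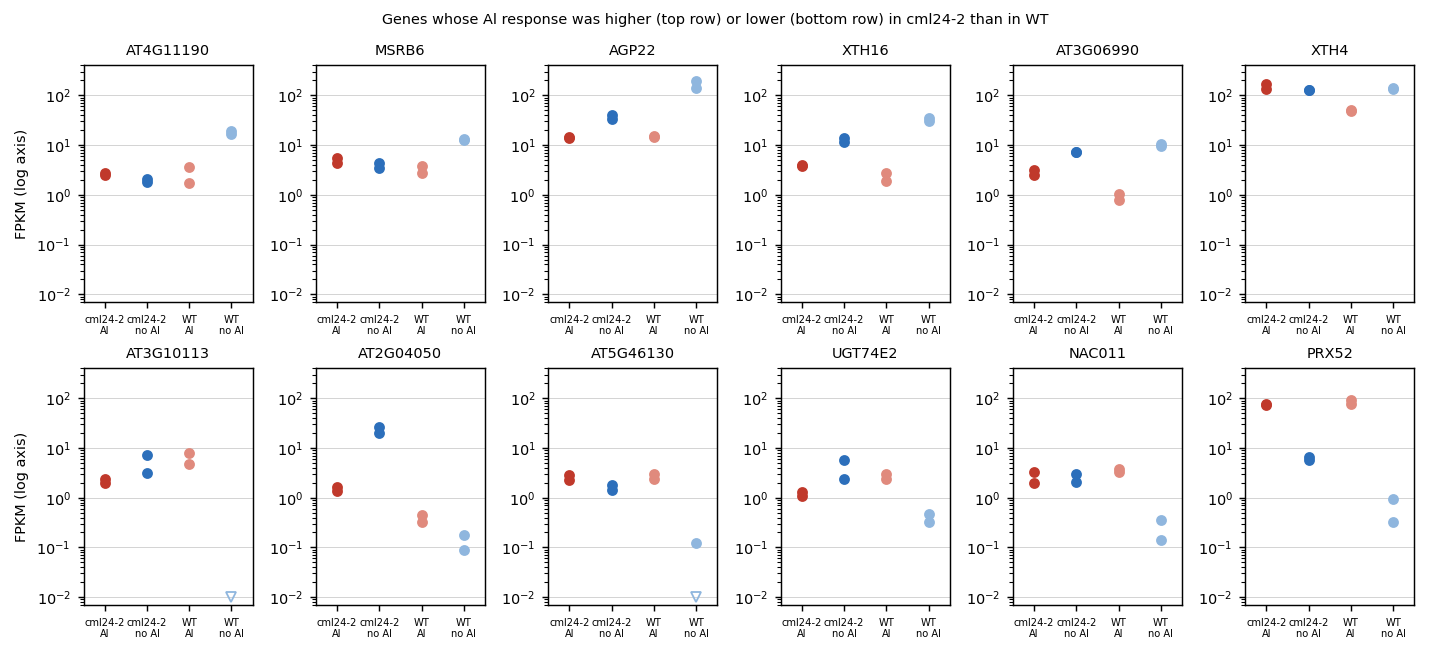
FPKM (log axis) of the 12 genes with the largest differences of Al response, in cml24-2 with and without Al and in WT with and without Al (n = 2 libraries each, 1 point a library). An open triangle marks libraries in which the gene was not listed. PRX52 stands at 75.4 and 73.0 FPKM in cml24-2 with Al and at 0.95 and 0.32 FPKM in WT without Al.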

How the data were processed

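Roots of cml24-2 and WT seedlings given 10 or 0 µM Al for 6 h were compared in 8 libraries, 2 in each of 4 groups assigned by their titles. The authors deposited, per the file headers, expected counts and FPKM per gene and library, and RSEM is named in the submitters' processing notes. No source used here gives the aligner, genome build, strand setting or versions. Genes not listed in a file were set to 0. Libraries held 11743433 to 12188917 expected counts, which limits the precision of low genes.

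After rounding, expected counts went into edgeR 4.0.16 under R 4.3.3, with TMM scaling, filterByExpr and the quasi-likelihood test in 1 fit over all 8 libraries (4 residual degrees of freedom), with Benjamini-Hochberg adjustment over 20262 genes and a threshold of 0.05. All 8 libraries were fitted so that the groups share 1 estimate of the spread. List counts also ask for a 2-fold change and are descriptions with no set test. The self-test of the edgeR step was run on simulated data. Alternatives were DESeq2 1.42.0, other scaling, low-count filters, limma 3.58.1 on log2(FPKM + 1) and log2(FPKM + 0.1), the replicate number as a block, the 4 cml24-2 libraries alone, and leaving out each library. RefSeq TAIR10.1 was used for names (24086 of 24279 identifiers matched), overlaps and the 250 bases before each gene. All 12097 single-transcript genes compared had the deposited length in that annotation.

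The genes named are CML24, the 12 largest changes in each direction with groups that do not overlap in CPM and a mean of at least 2 FPKM in the higher group, the 8 largest FPKM differences in each direction, the 6 largest differences from WT in each direction, and list members as examples, those with the largest changes preferred. The lists, members and this rule were chosen with earlier results of these data known. A single Casparian strip gene is counted in its list and is not reported singly here.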

Additional observations from a re-analysis of the deposited data

Results flagged for a closer look

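In 16 genes named in the text, the Al response of cml24-2 differed from that of WT in the edgeR test of the difference itself, with 2 libraries in each of 4 groups. Values are log2 fold changes in cml24-2 minus those in WT. They were lower in cml24-2 for 10 genes: AT3G10113 (-10.75, not listed in either WT control), AT2G04050 (-5.45), AT5G46130 (-4.76), UGT74E2 (-4.56), NAC011 (-3.76), PRX52 (-3.52), GSTU22 (-2.95), GA2OX2 (-2.64), AT4G36430 (-2.56) and EXT4 (-1.68). They were higher in cml24-2 for AT4G11190 (3.12), MSRB6 (2.26), AGP22 (2.12), XTH16 (2.07), AT3G06990 (2.06) and XTH4 (1.69).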

How the results depend on the processing

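With 1 library left out, the calls in cml24-2 ranged over 3002 to 5114 higher and 3440 to 5108 lower, with 1028 to 1315 and 1643 to 1872 by at least 2-fold. DESeq2 called 3422 and 3538. Limma on log2(FPKM + 1) called 1199 genes at least 2-fold lower, against 1823 in the edgeR fit. The difference from WT was called in 2 to 269 genes higher and 10 to 226 lower when 1 library was left out, in 69 and 122 with DESeq2, and in 12 and 17 with limma on log2(FPKM + 0.1). The cause was not tested. The deviations of same-numbered libraries from their group means, with and without Al, correlated at 0.144 in cml24-2 and -0.018 in WT. These weak values do not tell if libraries of equal number were handled together. With the replicate block 4293 and 4696 genes were called, 1214 and 1811 by at least 2-fold, and 19 and 38 differed from WT. Of the single-gene responses, 9 values in 5 genes that were not called changed sign with 1 library left out. Their log2 fold changes ranged over -0.376 to 0.362 for NAC011, -0.908 to 0.322 for CML23, -0.129 to 0.324 for HAK5, -0.103 to 0.193 for MYB36 and -0.063 to 0.613 for WOX5. With 2 libraries a group and this depth, small changes of low genes were not detectable.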

Other observations

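Further letters were searched on both strands of the 250 bases before the annotated starts, with no test. The G-box CACGTG stood before 8.12% of the genes at least 2-fold higher with Al in cml24-2, 5.92% of those lower and 7.17% of all tested, and before 4 of the 18 abscisic acid phosphatase and marker genes (22.2%). The W-box letters TTGACT stood before 26.3%, 23.9% and 19.2% of these 3 sets. The GCC box stood before 2.44%, 1.15% and 1.97%, and the dehydration element before 5.84%, 3.51% and 5.12%. A match is a description of these letters, and it says nothing of a factor.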
